A study of Homo sapiens with 6 samples.

Results

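The expression of 4 genes for surface antigens that serve as therapy targets in prostate cancer was measured in C4-2 cells exposed to a fatty acid synthase inhibitor. The genes are FOLH1 (prostate-specific membrane antigen, PSMA), STEAP1, STEAP2 and CD276 (B7-H3). The genes were chosen by name, and all 4 were among the 14456 genes of the deposited table. C4-2 is a castration-resistant prostate cancer line derived from LNCaP, and all libraries came from this 1 line, grown in RPMI with fetal bovine serum. In the 3 IPI-9119 libraries, cells had received 100 nM of IPI-9119 for 6 days, and in the 3 DMSO libraries 0.1% DMSO, the vehicle. Polyadenylated RNA was sequenced. Whether the replicates were grown as separate cultures is not stated in the labels. The p-values therefore rest on how far these libraries differ, and that spread may be technical.

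PSMA is a membrane carboxypeptidase that removes glutamate from folylpolyglutamates and from the neuropeptide N-acetylaspartylglutamate (NAAG). It is the target of radioligand imaging and therapy, and its gene is known to be repressed by androgens in LNCaP-type cells. The STEAP proteins span the membrane and bind haem. STEAP2, STEAP3 and STEAP4 reduce iron and copper, whereas STEAP1 lacks the domain that binds the electron donor NADPH. B7-H3 is an immunoglobulin-type ligand of the B7 family, studied as an inhibitory checkpoint molecule and as a target of antibody-drug conjugates.

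The 4 genes did not move together. CD276 and FOLH1 were higher in IPI-9119 cells, STEAP2 was lower, and STEAP1 did not pass the test. Of the 4 genes, 3 were called at an adjusted p under 0.05 (limma, Benjamini-Hochberg adjusted over all genes), in a comparison that called 62.8% of 14437 genes tested, 31.3% higher and 31.4% lower. With a correction for the length and GC content of transcripts, which takes out what each library's values share with those properties, all 4 were called, 2 higher and 2 lower, against 64.8% of genes (30.7% higher, 34.1% lower). On the read counts recovered from the table the same 3 genes were called by edgeR, which called 62.8% of genes (31.0% higher, 31.9% lower), and by DESeq2, which called 58.6% (29.4% higher, 29.2% lower). A count of 3 in 4 is close to these shares. For these 3 genes every IPI-9119 library also lay on one side of every DMSO library, as it did for 67.9% of all genes (34.0% higher, 33.9% lower). Values are normalised read counts, in which the authors had scaled the reads of a gene by 1 factor per library. Recovered totals were 19090749 to 20422882 reads in the IPI-9119 libraries and 21952620 to 23448035 in the DMSO libraries.

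**Figure D1:**
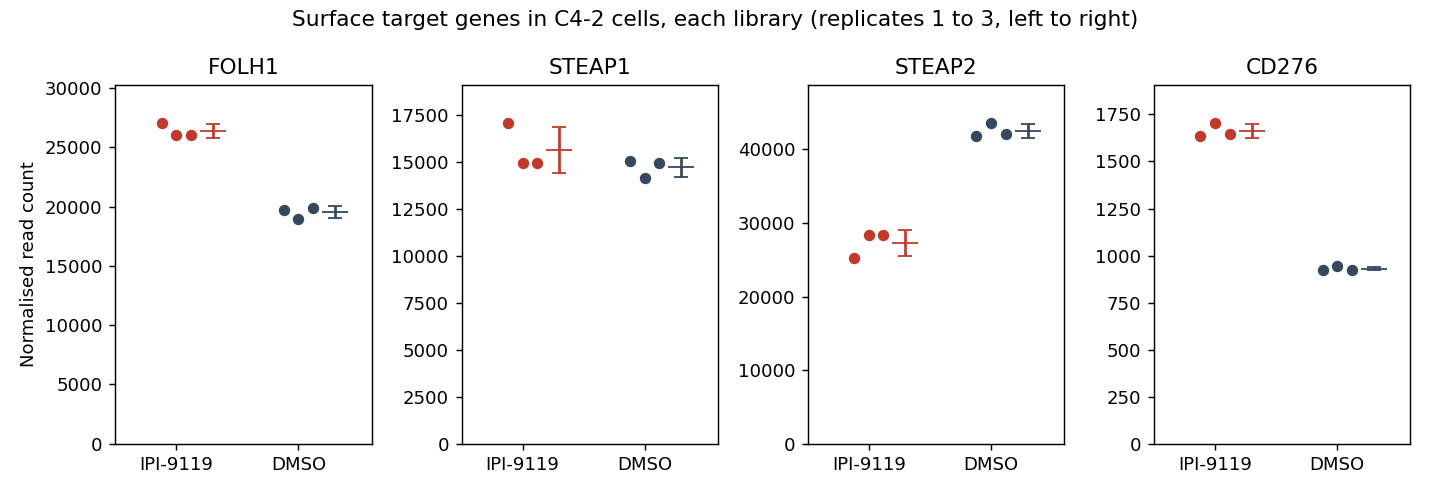
Normalised read count (linear axis from 0) of FOLH1, STEAP1, STEAP2 and CD276 in each of the 3 IPI-9119 and 3 DMSO libraries (points), with mean and SD (bars). The groups are apart for FOLH1, STEAP2 and CD276 and overlap for STEAP1, where IPI-9119 replicate 1 is the highest library at 17031.

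FOLH1, the PSMA gene (ENSG00000086205, chromosome 11, 49146635 to 49208670, minus strand, GRCh38), had 27019, 26002 and 26050 normalised counts in IPI-9119 replicates 1 to 3, against 19702, 18942 and 19899 in DMSO replicates 1 to 3. Every IPI-9119 library lay above every DMSO library. The means were 26357 ± 574 in IPI-9119 cells and 19514 ± 505 in DMSO cells (SD, n = 3 each). FOLH1 thus rose 1.35-fold, a log2 difference of 0.43 (SE 0.042, 95% interval 0.34 to 0.52, adjusted p 7.0e-07, limma). Of all genes tested, 22.0% had a difference at least as far upward. Corrected for length and GC content, the FOLH1 difference was 0.21 (adjusted p 0.000323). A near copy, the pseudogene FOLH1B, shares 28.1% of the 50-base words of the FOLH1 transcripts. It had 38 reads over the IPI-9119 libraries and 25 over the DMSO libraries, whereas FOLH1 had 73154 over the IPI-9119 libraries and 63784 over the DMSO libraries. How reads that fit both copies were counted is not given in the sources used here. FOLH1B itself did not pass the test (log2 difference 0.81, SE 0.41, adjusted p 0.0980, limma).

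STEAP1 (ENSG00000164647, chromosome 7, 90154375 to 90164829, plus strand) had 17031, 14945 and 14907 normalised counts in the IPI-9119 libraries, against 15024, 14111 and 14948 in the DMSO libraries. The groups overlapped, with IPI-9119 replicate 1 high and the other two IPI-9119 libraries within the DMSO range. The means were 15628 ± 1216 in IPI-9119 cells and 14694 ± 507 in DMSO cells (SD, n = 3 each). The log2 difference was 0.087 (SE 0.055, adjusted p 0.184, limma), with a 95% interval of -0.031 to 0.20. Without IPI-9119 replicate 1 it was 0.023 (adjusted p 0.640). Corrected for length and GC content it was -0.16 and past the threshold (adjusted p 0.00670), so the direction for STEAP1 depends on that correction. The paralog STEAP1B, not analysed here, shares 21.4% of the 50-base words of the STEAP1 transcripts.

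STEAP2 (ENSG00000157214, chromosome 7, 90167590 to 90238137, plus strand) went down. It had 25293, 28373 and 28315 normalised counts in the IPI-9119 libraries, against 41811, 43535 and 42144 in the DMSO libraries. Each IPI-9119 library lay well below the lowest DMSO library, and IPI-9119 replicate 1 was the lowest. STEAP2 averaged 27327 ± 1762 in IPI-9119 cells and 42496 ± 915 in DMSO cells (SD, n = 3 each), a change of -35.7%. It fell with a log2 difference of -0.64 (SE 0.050, 95% interval -0.75 to -0.53, adjusted p 7.6e-08, limma), and 16.9% of all genes lay at least as far down. Leaving out IPI-9119 replicate 1 gave -0.58.

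STEAP1 and STEAP2 are neighbours on the same strand of chromosome 7, with 2.761 kb between the end of STEAP1 and the start of STEAP2 in GENCODE 29. The ratio of STEAP1 to STEAP2 normalised counts was 0.673, 0.527 and 0.526 in the IPI-9119 libraries and 0.359, 0.324 and 0.355 in the DMSO libraries. All 3 IPI-9119 ratios were above all 3 DMSO ratios. The log2 ratio differed by 0.73 (IPI-9119 minus DMSO; two-sided exact permutation test, p = 0.10, the smallest p that 3 against 3 libraries allow). On the other side of STEAP2, 7.04 kb away, CFAP69, a cilia and flagella gene, rose (log2 difference 0.52, SE 0.10, adjusted p 0.000585, limma). STEAP2-AS1, an antisense transcript that overlaps both genes, had 28 reads over the IPI-9119 libraries and 37 over the DMSO libraries. It shares 0 exonic bases with either gene, and its log2 difference was -0.18 (adjusted p 0.718, limma). The strand setting of the counting is not given in the sources used here. Without strand, reads of a gene and of its antisense partner are told apart only by the exons they fall on. Further along, GTPBP10 did not pass (-0.040, adjusted p 0.573), while the claudin gene CLDN12 (1.23) and the kinase gene CDK14 (0.83) rose (adjusted p 3.9e-11 and 1.6e-07, limma). These 3 genes were chosen by position after their values were seen. STEAP4, the nearest tested gene on the lower-coordinate side of STEAP1, lies 1847.5 kb away and fell with a log2 difference of -1.58.

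**Figure D2:**
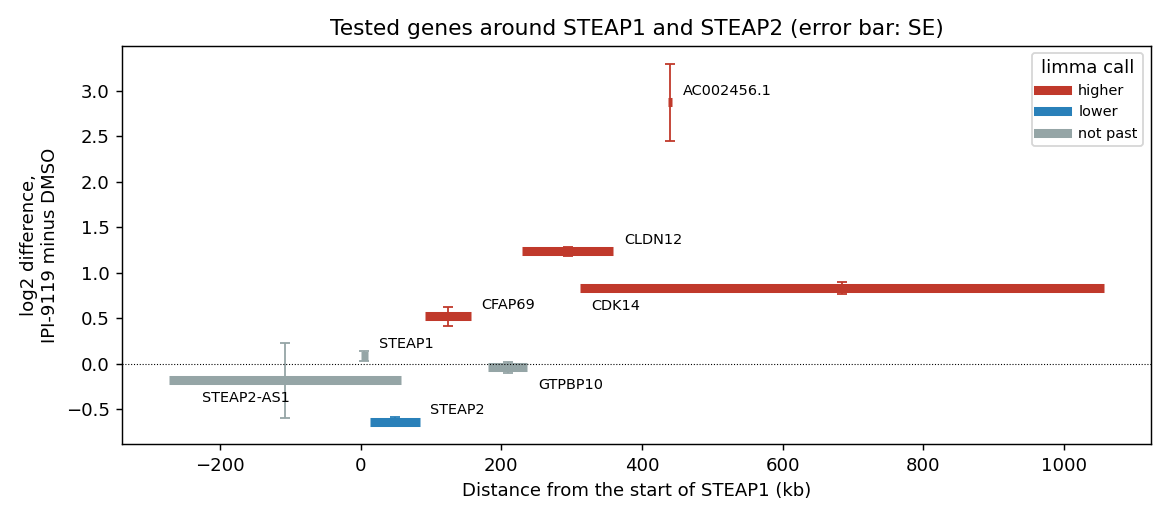
Log2 difference in normalised read count (IPI-9119 minus DMSO, y axis) of tested genes within 1000 kb of the start of STEAP1, drawn as bars over each gene body (x axis, kb from that start) with SE. STEAP2 (-0.64) lies below 0 between STEAP1 (0.087) and CFAP69 (0.52). A short antisense gene, AC002456.1, lies highest (2.87).

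The promoters of STEAP1 and STEAP2 are printed to set the neighbours that differed in response side by side. Each is the 250 bases before the RefSeq start (GRCh38.p14, plus strand, 5′ to 3′), chr7:90154219-90154468 for STEAP1 and chr7:90211490-90211739 for the first of 2 listed STEAP2 starts. GENCODE gene bodies begin before these RefSeq starts. For STEAP1 the body begins at 90154375 and the RefSeq start is at 90154469. For STEAP2 the body begins at 90167590 and the first RefSeq start is at 90211740. The printed STEAP2 bases therefore lie inside its annotated gene body, not in the gap next to STEAP1. Capitals mark a match on either strand to any of 5 motifs.
STEAP1: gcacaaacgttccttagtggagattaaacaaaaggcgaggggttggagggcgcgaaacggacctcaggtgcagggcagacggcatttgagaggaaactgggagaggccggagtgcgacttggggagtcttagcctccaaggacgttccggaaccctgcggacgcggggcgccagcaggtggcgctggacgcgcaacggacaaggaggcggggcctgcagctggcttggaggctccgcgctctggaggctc
STEAP2: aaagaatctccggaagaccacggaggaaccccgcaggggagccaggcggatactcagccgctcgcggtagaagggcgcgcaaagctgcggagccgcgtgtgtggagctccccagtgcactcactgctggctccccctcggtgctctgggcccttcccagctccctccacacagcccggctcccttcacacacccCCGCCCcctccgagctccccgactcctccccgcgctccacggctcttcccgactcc
The motifs searched were the GC box GGGCGG, the NF-Y box CCAAT, the E-box CACGTG, the steroid response hexamer AGAACA and the sterol element TCACNCCAC. The letters of STEAP1 held 0 matches, and those of the first STEAP2 start held 1 GC box, which 42.6% of 35116 promoters of the same length hold. The second listed STEAP2 start, not printed, differed from the first, with 0 GC boxes, 2 NF-Y boxes and a GC content of 32.8%. GC content was 64.4% for STEAP1 and 69.6% for the first STEAP2 start, against a median of 58.0% over all promoters. The shares of all promoters with the other motifs were 32.0% for CCAAT, 6.34% for CACGTG, 12.4% for AGAACA and 0.883% for TCACNCCAC. A match here is a description of letters, not a binding site.

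CD276, the B7-H3 gene (ENSG00000103855, chromosome 15, 73683966 to 73714518, plus strand), had the largest difference of the 4 genes. It had 1635, 1703 and 1646 normalised counts in the IPI-9119 libraries, against 925, 943 and 925 in the DMSO libraries. The replicates of each group were close together and the groups far apart. CD276 averaged 1661 ± 36.2 in IPI-9119 cells and 931 ± 10.2 in DMSO cells (SD, n = 3 each). It rose 1.78-fold, a log2 difference of 0.83 (SE 0.055, 95% interval 0.72 to 0.95, adjusted p 1.3e-08, limma), and 10.2% of all genes lay at least as far up. Corrected for length and GC content, the CD276 difference was 1.26 (adjusted p 6.2e-12). CD276 was also the gene of the 4 with the highest GC content of its longest transcript, 61.0%, against 36.9% to 44.3% for the others.

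The promoter of CD276 is shown because it carries the gene with the largest response and differs in letters from those above. It is chr15:73684133-73684382 (GRCh38.p14, plus strand), the 250 bases before the first of 2 RefSeq starts, with the same capitals. The GENCODE gene body of CD276 begins at 73683966, so the printed bases lie inside it.
CD276: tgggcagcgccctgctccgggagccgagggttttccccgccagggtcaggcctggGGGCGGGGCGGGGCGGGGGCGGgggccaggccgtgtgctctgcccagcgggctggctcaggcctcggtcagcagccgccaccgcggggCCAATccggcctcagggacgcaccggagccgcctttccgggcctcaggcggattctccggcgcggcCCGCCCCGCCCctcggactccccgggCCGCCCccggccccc
It held 7 GC boxes, some of them overlapping one another, and 1 CCAAT, with a GC content of 80.8%. The second CD276 start, not printed, held 2 GC boxes and 0 NF-Y boxes, with a GC content of 77.2%.

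**Figure D3:**
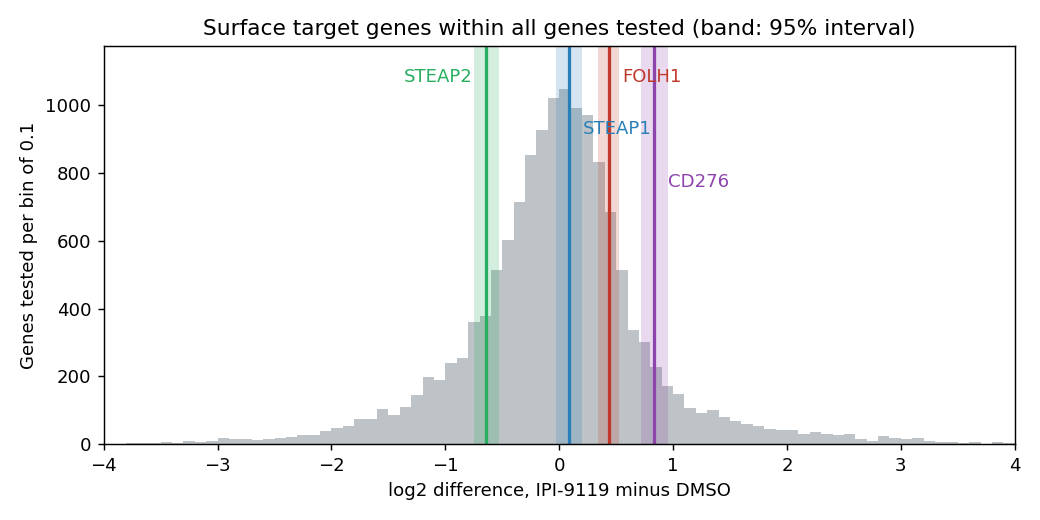
Number of tested genes (y axis) by log2 difference in normalised read count, IPI-9119 minus DMSO (x axis, bins of 0.1), with the 4 surface target genes as lines and their 95% intervals as bands. STEAP2 lies on the lower side, STEAP1 near the centre, and FOLH1 and CD276 on the upper side. A further 6 genes lie below and 14 above the axis range.

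Per kilobase of annotated exon, the order of levels was the same in both groups, with STEAP1 first, then FOLH1, STEAP2 and CD276. STEAP1 had 9617 ± 748 normalised counts per kb in IPI-9119 cells and 9043 ± 312 in DMSO cells (SD, n = 3 each). FOLH1 had 6893 ± 150.0 in IPI-9119 cells and 5103 ± 132 in DMSO cells. STEAP2 had 3136 ± 202 in IPI-9119 cells and 4876 ± 105 in DMSO cells. In IPI-9119 cells FOLH1 was 2.20-fold above STEAP2 with no overlap, whereas in DMSO cells the libraries of these genes overlapped. CD276 had 299.8 ± 6.53 per kb in IPI-9119 cells and 168 ± 1.84 in DMSO cells, the lowest level of the 4 in both groups. Among 14392 genes with a known length, the level per kb ranked STEAP1 at 81 in IPI-9119 cells and 77 in DMSO cells. FOLH1 ranked at 124 in IPI-9119 cells and 152 in DMSO cells, STEAP2 at 305 in IPI-9119 cells and 160 in DMSO cells, and CD276 at 3197 in IPI-9119 cells and 4783 in DMSO cells. Divided by the longest transcript instead, the levels of FOLH1 and STEAP2 in DMSO cells were 7236 and 6042, so the near equality of these 2 genes rests on the choice of length.

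All 6 ratios between pairs of the 4 genes separated the groups without overlap. The 6 ratios are built from the same 4 genes and are not independent. How many of all gene pairs separate in this way was not computed. Of single genes, 67.9% did not overlap between the groups. The count of FOLH1 relative to STEAP2 was 0.968 ± 0.0866 in IPI-9119 cells and 0.459 ± 0.0211 in DMSO cells (SD, n = 3 each), a log2 difference of 1.07. STEAP2 relative to CD276 was 15.5, 16.7 and 17.2 in the IPI-9119 libraries and 45.2, 46.2 and 45.6 in the DMSO libraries, a log2 difference of -1.47 and the largest of the 6. FOLH1 relative to STEAP1 was 1.69 ± 0.0909 in IPI-9119 cells and 1.33 ± 0.0157 in DMSO cells, with a log2 difference of 0.35 that was the smallest. FOLH1 relative to CD276 differed by -0.40 and STEAP1 relative to CD276 by -0.75 on the log2 scale. Each of the 6 exact permutation tests gave p = 0.10, also after adjustment over the 6 pairs, which is the smallest value possible with 3 libraries a group. With the length and GC correction the log2 differences of FOLH1 relative to CD276 (-1.05), and of STEAP1 relative to CD276 (-1.42), were more than 1.5 times as large.

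Among the other STEAP genes, STEAP4, a metalloreductase of fat and prostate, fell. It averaged 81.9 ± 12.4 normalised counts in IPI-9119 cells and 245 ± 10.3 in DMSO cells (SD, n = 3 each), a log2 difference of -1.58 (SE 0.14, adjusted p 2.3e-07, limma). STEAP3, an endosomal ferrireductase, averaged 207 ± 18.5 in IPI-9119 cells and 191 ± 9.18 in DMSO cells and did not pass (adjusted p 0.393). Of 4 tested STEAP genes, 0 rose, 2 fell and 2 did not pass, where 31.3% of all genes were called higher and 31.4% lower.

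Iron and copper are the substrates of the STEAP reductases. Of 22 tested genes that handle these metals, 13 rose, 3 fell and 6 did not pass, where 31.3% of all genes were called higher and 31.4% lower. The median log2 difference was 0.40 in the list and 0.0017 over all genes. TFRC, the transferrin receptor and itself a surface target, averaged 19204 ± 635 in IPI-9119 cells and 3667 ± 215 in DMSO cells (SD, n = 3 each), a log2 difference of 2.39 (adjusted p 3.2e-13, limma). Haem oxygenase HMOX1 (1.71), the metal transporter SLC39A8 (1.49) and the ferritin heavy chain FTH1 (1.43) also rose, and the mitochondrial iron importer SLC25A37 fell (-0.85).

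Folate and NAAG metabolism, to which PSMA belongs, went both ways. Of 22 tested genes, FOLH1 included, 8 rose and 7 fell, and the other 7 were not past the threshold. Over all genes, 31.3% were called higher and 31.4% lower, so these counts lie close to the general split. The median log2 difference was -0.058. Thymidylate synthase TYMS rose the furthest (2.79). GGH, the lysosomal enzyme that, like PSMA, trims glutamate from folates, averaged 957 ± 49.0 in IPI-9119 cells and 354 ± 1.71 in DMSO cells (SD, n = 3 each; log2 difference 1.43, adjusted p 9.5e-10, limma). RIMKLA, a synthase of NAAG, rose by 0.80. Corrected for length and GC content, the list had 12 genes higher, 6 lower and a median of 0.24, the opposite sign. With that correction 30.7% of all genes were higher and 34.1% lower.

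**Figure D4:**
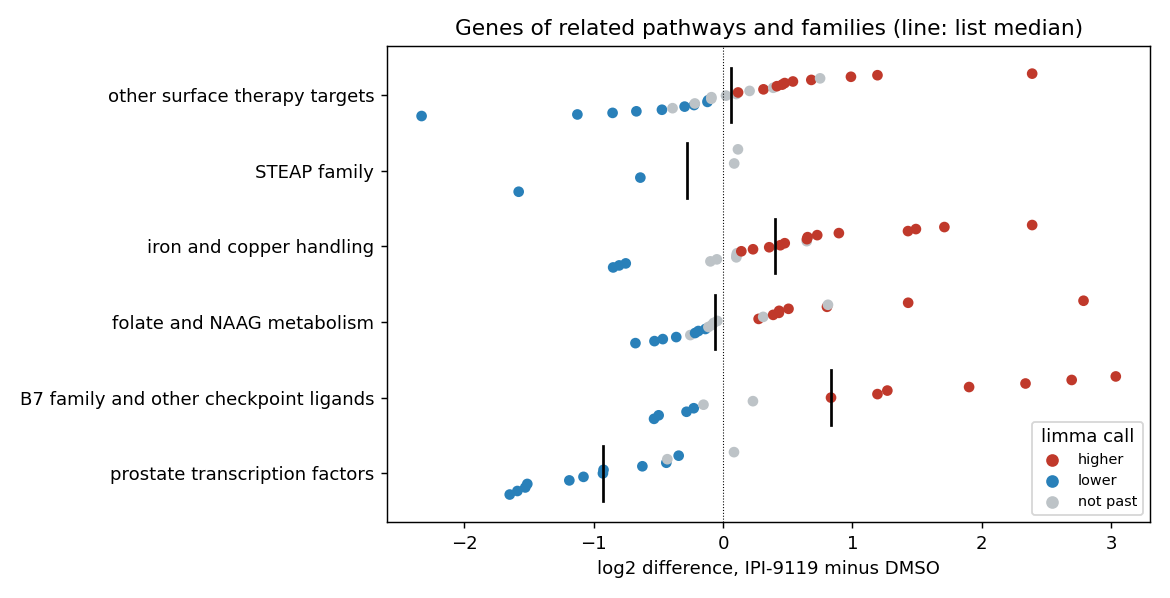
Log2 difference in normalised read count (IPI-9119 minus DMSO, x axis) of each tested gene in 6 lists, coloured by its limma call, with the list median as a line. The 4 surface target genes are included in the STEAP, folate and B7 lists. The list of prostate transcription factors, which also holds factors not particular to the prostate, lies almost wholly below 0 (median -0.93).

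Among the B7 family and other checkpoint ligands, 13 of 24 were tested, CD276 included. Of these, 7 rose and 4 fell, and the other 2 were not past the threshold, where 31.3% of all genes were higher and 31.4% lower. The median log2 difference was 0.83, the value of CD276 itself, and 0.71 without it. The genes with the largest differences were butyrophilins, membrane proteins related to the B7 family, some of which take part in activating gamma delta T cells. BTN3A2 averaged 234 ± 13.9 in IPI-9119 cells and 28.1 ± 6.16 in DMSO cells (SD, n = 3 each), a log2 difference of 3.04 (adjusted p 5.0e-09, limma). BTN3A1 (2.70), BTN3A3 (2.34) and BTN2A2 (1.90) also rose. The BTN3A genes are close paralogs, so reads could be split among them. BTNL9 fell (-0.53, adjusted p 0.0253, limma). That call ended when IPI-9119 replicate 1 (adjusted p 0.0769) or 3 (0.0743), or DMSO replicate 1 (0.0594) or 2 (0.0851), was left out, and with DESeq2 (0.0534). The number of genes that fell was 2 without IPI-9119 replicate 1, IPI-9119 replicate 3 or DMSO replicate 1. DESeq2 also called 2 lower.

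Other surface proteins under study as targets in solid tumours split evenly. Of 28 tested among 38 listed, 10 rose and 9 fell, and the other 9 were not past the threshold (median 0.063 on the log2 scale). That split is close to the one over all genes, of which 31.3% were called higher and 31.4% lower. Besides TFRC, CD47, the signal that restrains phagocytosis, rose. It averaged 2018 ± 119 in IPI-9119 cells and 881 ± 30.4 in DMSO cells (SD, n = 3 each), a log2 difference of 1.19 (adjusted p 9.8e-10, limma). The growth factor receptor genes IGF1R and EGFR fell. IGF1R had 457 ± 84.8 in IPI-9119 cells and 2290.3 ± 321 in DMSO cells (log2 difference -2.33). EGFR had 940.0 ± 193 in IPI-9119 cells and 2034 ± 280 in DMSO cells (-1.13). Corrected for length and GC content, the differences were -1.76 for IGF1R and -0.79 for EGFR. With that correction the list had 9 genes higher and 7 lower, against 30.7% and 34.1% of all genes. Correction by the longest transcript gave -0.72 for EGFR. Without correction, the number that rose was 6 when IPI-9119 replicate 3, DMSO replicate 1 or DMSO replicate 3 was left out.

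Most listed transcription factors of prostate cells were lower. Besides lineage factors the list held SP1, MYC and CREB1, which are not particular to the prostate. Of 13 tested, 0 rose, 11 fell and 2 did not pass, where 31.3% of all genes were called higher and 31.4% lower. The median log2 difference was -0.93. SP1 (-0.62) and MYC (-0.34) were among those that fell. SPDEF, an epithelial ETS factor, averaged 1664 ± 29.6 in IPI-9119 cells and 5222 ± 219 in DMSO cells (SD, n = 3 each; -1.65, adjusted p 6.8e-12, limma). GATA2, a zinc finger factor, fell by 1.51 on the log2 scale. NFATC1, a factor linked to the FOLH1 enhancer, had a difference of -1.59, and -0.79 when corrected for length and GC content.

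The cells carried luminal prostate markers, and these moved with the groups. Of 8 markers 7 fell and 1, ACPP, rose, where 31.4% of all genes were called lower and 31.3% higher. Their summed level was 113329 to 116645 normalised counts in the IPI-9119 libraries and 213636 to 224636 in the DMSO libraries. KRT8 fell with a log2 difference of -0.60, and of -0.23 when corrected for length and GC content. In bulk RNA, fewer cells of a kind and less RNA per cell cannot be told apart. Of the markers of other cell types, 0 of 6 leukocyte markers, 2 of 6 endothelial (VWF and KDR), 2 of 6 neuroendocrine, 2 of 5 basal and 3 of 7 fibroblast and smooth muscle markers had a row analysed here. The summed levels of these lists were at most 132 normalised counts in any IPI-9119 library and 106 in any DMSO library, and PTPRC, PECAM1, KRT5 and TP63 had no row used here. Only ACTA2 among them passed the test without correction, higher at 16.2 ± 2.47 in IPI-9119 cells and 5.19 ± 4.34 in DMSO cells (SD, n = 3 each). Corrected for length and GC content, ACTA2 (1.54), COL1A1 (1.49), ITGB4 (1.26) and VWF (0.89) were called higher, against 30.7% of all genes. Their adjusted p-values were 0.0133, 0.000425, 0.0185 and 0.00115 (limma). The other tested markers of these lists were not called. The part of the luminal marker change in the differences of the 4 genes was not tested.

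Profiles over the 6 libraries were compared by the root mean square difference in log2 level from the DMSO mean, among 9657 named protein-coding genes. The closest to FOLH1 were PTTG1IP (0.0085), ADSS (0.013) and GHITM (0.015). Those closest to STEAP1 were the ribosomal protein genes RPL30 (0.0063) and RPS7 (0.010) and the mitochondrial pyruvate carrier gene MPC2 (0.015). DNM1L (0.020), ZNF18 (0.024) and NAA60 (0.025) lay closest to STEAP2, and SNN (0.028), TIMELESS (0.032) and MSANTD3 (0.032) to CD276. These profiles were not corrected for length and GC content. After that correction NAA60 was at -0.061 (adjusted p 0.474, limma), while DNM1L (-0.74) and ZNF18 (-0.80) stayed near STEAP2 (-0.73). SNN (0.70), TIMELESS (0.89) and MSANTD3 (0.59) were lower than CD276 (1.26). RPL30 (-0.028) and RPS7 (-0.047) were not called, unlike STEAP1 (-0.16) and MPC2 (-0.16). PTTG1IP (0.30), ADSS (0.18) and GHITM (0.17) lay on either side of FOLH1 (0.21). The likeness to STEAP1 includes a high IPI-9119 replicate 1. The nearest tested genes beside FOLH1 were PTPRJ, which fell (-0.55, and -0.33 when corrected for length and GC content), and a pseudogene, AC135977.1 (-0.29, adjusted p 0.504). Beside CD276 lay NPTN, which fell (-0.28, and -0.46 after that correction), and LOXL1-AS1 (-0.14, adjusted p 0.379, and -0.33 with an adjusted p of 0.0340 after it).

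**Figure D5:**
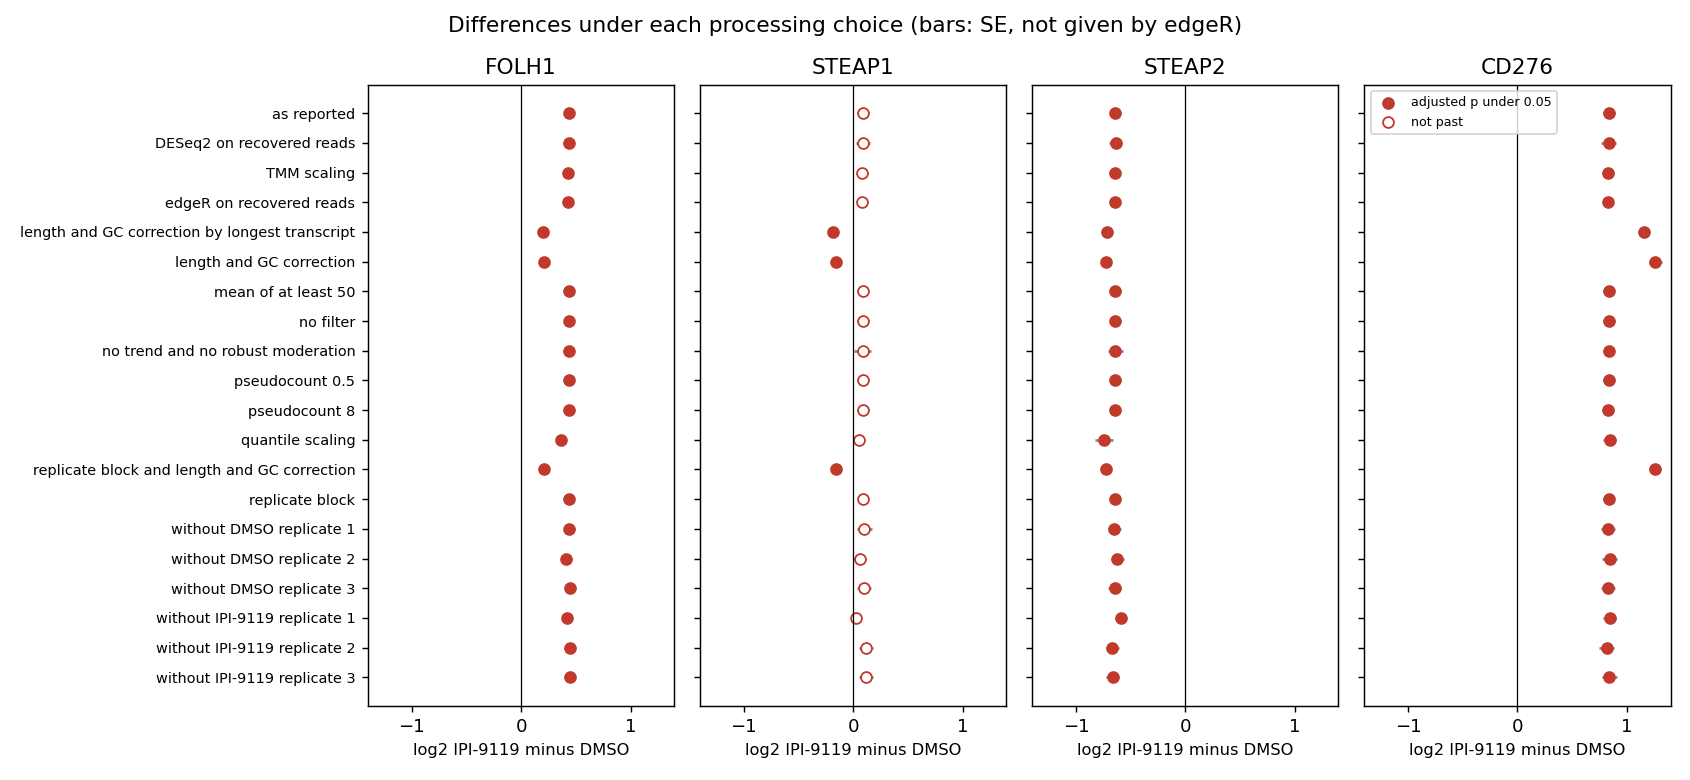
Log2 difference in normalised read count (IPI-9119 minus DMSO, x axis) of each surface target gene as reported and under 19 other processing choices (rows), with SE where the tool gives one. Filled points are past an adjusted p of 0.05. FOLH1 and CD276 stay above 0 and STEAP2 below 0 in every row, while STEAP1 is past the threshold, below 0, only in the 3 rows with the length and GC correction.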

How the data were processed

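Polyadenylated RNA of C4-2 cells was sequenced in 3 IPI-9119 and 3 DMSO libraries. The deposited table holds a signal: reads per gene that the authors had scaled by 1 factor per library, as its values show. Per the submitters' processing notes, the build was GRCh38 and the tools named are STAR 2.5.2b, Trimmomatic 0.36, DESeq2, Subread 1.5.2 and featureCounts, without saying which step each did. Annotation release and strand setting are not given in the sources used here. All values (100%) were whole multiples of 1 read within 0.01 read, which gave the counts back. The lowest total of a gene was 61 reads.

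limma 3.58.1 (R 4.3.3, trend and robust moderation) was fitted to log2(value + 1) of 14437 genes with a mean of at least 10, with two-sided tests and Benjamini-Hochberg adjustment over all of them. A fold change on this scale is an understatement for low genes. The unit needed this test; edgeR 4.0.16 (9072 genes called) and DESeq2 1.42.0 (8460) on the recovered counts were alternatives, beside 9061 called by limma. Annotation was GENCODE 29, and promoters were RefSeq's on GRCh38.p14, matched by symbol for 3 of the 4 genes. A length and GC correction subtracted, per library, a fit of the deviation from the gene's mean on splines (4 degrees of freedom for each property, with their interaction) of log2 exonic length and of the GC percent of the longest transcript, for 99.6% of genes. Gene lists (6) and the 4 genes were chosen with earlier results of these data known. Genes named were, per list, the 4 called genes with the largest change at a mean of at least 50 (plus the largest the other way), chromosome neighbours, near copies, and the 3 closest profiles at a mean of at least 100; some genes that this rule names are not reported here. In counts simulated for this comparison over 14047 genes, limma recovered 98 of the 100 set to a 2-fold change and 88 of the 100 set to 1.5-fold, and called 8 that had none. No other genes were changed there, as many went up as down, and no length or GC effect was simulated. The real comparison called 62.8% of genes, so these counts do not give its error rate. Within groups, no pair of libraries matched as closely as sampling alone would give (chi-square over its degrees of freedom 2.29 to 9.57).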

Additional observations from a re-analysis of the deposited data

How the results depend on the processing

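FOLH1, STEAP2 and CD276 kept their direction and their call in all 19 alternatives (another pseudocount, filter or scaling, plain moderation, count tests, the replicate block, the length and GC correction, and each library left out). FOLH1 ran from 0.20 to 0.45, STEAP2 from -0.75 to -0.58 and CD276 from 0.82 to 1.26 on the log2 scale, with adjusted p-values up to 0.00122, 0.000731 and 0.000124. STEAP1 reversed with the length and GC correction (-0.16), with that correction by longest transcript (-0.18) and with it together with the replicate block (-0.16), the last 2 chosen after seeing the data. The correction removes any difference that follows length or GC content, whatever its cause, which was not tested. Adjusted p-values of STEAP1 ran from 0.000612 to 0.640. Leaving out each library in turn, STEAP1 ran from 0.023 to 0.12 and was not called. Replicate numbers are shared by the groups, but same-numbered libraries correlated at 0.14, 0.063 and 0.0044 in their deviations, so they share only a number. With the replicate block STEAP1 was at an adjusted p of 0.0517 (log2 difference 0.087), the other 3 genes were called, and 4797 genes were higher and 4799 lower. Over all alternatives, the genes called ran from 3930 to 4797 higher and from 4022 to 5133 lower. The 6 ratios between genes kept their sign in all 9 alternatives each. In the lists, counts moved by over 1.5 times for other surface targets, B7 ligands and the STEAP family, the last with 1 gene higher under the correction by longest transcript. CD276 rests on 4609 reads over the IPI-9119 libraries and 3041 over the DMSO libraries, and FOLH1B and STEAP2-AS1 on too few for a small difference to be detectable.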
